A study of Mus musculus with 4 samples.

Results

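The circadian clock genes described here were 10 genes chosen by name, Arntl, Clock, Per1, Per2, Per3, Cry1, Cry2, Nr1d1, Nr1d2 and Dbp, and all 10 were among the 52459 genes of the count table. Their RNA was measured in intestinal stem cells (ISCs) of wildtype C57/Bl6 mice, in 2 libraries from young animals of 2 months and 2 from old animals of 22 months. Each library came from a pool of 5 animals, and the ISCs were sorted from small intestinal crypts with the SM6 strategy, as CD31-, CD45-, CD24 medium, CD166+, CD44 high, GRP78 low, EPHB2 high and EPCAM+ cells. No transgene, Cre driver or treatment was part of either group. The mice were female and kept on a light/dark cycle, and the RNA was amplified by SPIA (single primer isothermal amplification) for full-length sequencing. The hour at which the tissue was taken is not given in the sources used here, so a difference in age and a difference in the time of day of collection cannot be told apart.

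The mammalian clock is a feedback loop of transcription that runs with a period of about a day in most cells, the intestinal epithelium included. The proteins of Arntl (also called Bmal1) and Clock form a dimer that binds E-box elements and activates the Per, Cry, Nr1d and Dbp genes. The PER and CRY proteins return to the nucleus and inhibit that dimer, and NR1D1 and NR1D2 (REV-ERB alpha and beta) repress Arntl through ROR/REV-ERB elements. DBP is a factor of the PAR bZIP family that carries the rhythm to output genes through D-box elements. Levels of Arntl and of the Per, Nr1d and Dbp mRNAs therefore swing over the day, with Arntl near its low point when Nr1d1 and Dbp are near their peak, whereas Clock mRNA changes little in many tissues.

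The elements that this scheme turns on were looked for in the RefSeq promoter windows of GRCm38.p6, from 250 bases before to 50 bases after a transcription start. Windows were given for 9 of the 10 members, 13 windows in all, since Clock has 3 starts in the table and Arntl and Per1 have 2 each. Per2 was not matched. The letters searched, on both strands, were CACGTG for the E-box, CACGTT for an E-box-like element, TTANGTAA for the D-box, TAGGTCA or TGGGTCA for the ROR/REV-ERB element and TGACGTCA for the cAMP response element. In the 250 bases before the start, an E-box was found for Per1 and Cry1, and 6.02% of all 32851 windows hold one there. An E-box-like element was found for Cry1, Cry2 and Nr1d1 (3.85% of all windows), and a D-box, at 2 places, for Per3 (2.06%). No member window held a ROR/REV-ERB element (5.38% of all windows) or a cAMP response element (1.55%) in those 250 bases. In the 50 bases after the start, which were looked at after the sequences had been seen, 1 of the Arntl windows held a ROR/REV-ERB element, and 1.01% of all windows hold one there. The 30 bases around each element are given here, 5′ to 3′ on the strand of the gene, because they are the letters of the elements named in the scheme above. The element is in capitals, and a match is a match of letters and not a measured site.
Per1, E-box, chr11:69098771-69098800, plus strand: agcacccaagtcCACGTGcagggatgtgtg
Cry1, E-box, chr10:85185097-85185126, minus strand: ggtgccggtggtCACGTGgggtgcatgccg
Cry1, E-box-like element, chr10:85185116-85185145, minus strand: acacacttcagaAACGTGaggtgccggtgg
Cry2, E-box-like element, chr2:92434218-92434247, minus strand: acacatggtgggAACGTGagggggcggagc
Nr1d1, E-box-like element, chr11:98775388-98775417, minus strand: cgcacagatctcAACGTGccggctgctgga
Per3, D-box, chr4:151044852-151044881, minus strand: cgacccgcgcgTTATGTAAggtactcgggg
Per3, D-box, chr4:151044805-151044834, minus strand: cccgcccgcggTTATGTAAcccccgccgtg
Arntl, ROR/REV-ERB element, chr7:113207530-113207559, plus strand: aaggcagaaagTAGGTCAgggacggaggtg
In Cry1 the E-box and the E-box-like element lie side by side, with their centres 57 and 76 bases before the start. The centres of the D-boxes of Per3 lie 154 and 201 bases before its start. The AACGTG of Cry1, Cry2 and Nr1d1 is the E-box-like element read on the opposite strand.

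The libraries held 11662654 to 15975698 counts, of which 62.6 to 65.7% fell on mitochondrially encoded genes in young and 72.9 to 73.8% in old ISCs. This left 3852178 to 4593004 counts for all other genes. Levels were therefore scaled by TMM factors rather than by totals, and are given as normalized CPM (counts scaled to a common library size). All 6 stem cell markers were present, with Lgr5 between 206 and 248 normalized CPM in the 4 libraries, and none of the 6 passed edgeR's test of age at an FDR of 0.05 (2.26% of all genes did). An unadjusted p under 0.05 was seen for 3 (16.9% of all genes), and limma voom, DESeq2 and edgeR's likelihood ratio test each called 1. The lowest p in edgeR's quasi-likelihood test was that of Axin2, at 149 and 128 normalized CPM in the young and 102 and 98.5 in the old pools (log2 fold change -0.46, FDR = 0.051). Both old pools were below both young pools in 3 of the markers (23.6% of all genes) and above in 1 (24.0%). The endothelial and stromal markers were at or near 0, with 5 of the 6 at no more than 3 counts in any library and Pecam1 at up to 7. The leukocyte genes Ptprc and Cd3e never exceeded 3 counts. Of the same list, Itgam was counted 148 to 254 times a library and was called higher in old ISCs (log2 fold change 0.78, FDR = 0.030), a call lost in DESeq2 (FDR = 0.074), by total counts (0.30, FDR = 0.25) and without the first young pool (0.62, FDR = 0.31). Cd68 was counted 22 to 63 times and had a log2 fold change of -0.79 (FDR = 0.32). The 6 enterocyte markers summed to 70.3 and 86.1 normalized CPM in the young and 278 and 168 in the old pools. The 5 Paneth cell markers to 684 and 520 in the young and 1592 and 586 in the old pools. The part of these cells in the values below was not tested, and in bulk RNA fewer cells of a type and less RNA per cell cannot be told apart.

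Among the clock genes measured in ISCs, Clock stood above the rest. Compared per length, as normalized CPM per kilobase of exon, Clock had a mean level over the 4 libraries of 5.35 (4.95 to 5.63), and its range lay apart from that of the next gene, Nr1d1. The means of the next 6 genes were 2.78 for Nr1d1, 2.36 for Nr1d2, 1.96 for Arntl, 1.90 for Per2, 1.66 for Per1 and 1.64 for Cry1. The ranges of neighbours in this order overlapped, so these neighbours did not differ beyond their spread. Per3 was lower, with a mean of 0.934 and a range (0.553 to 1.22) apart from that of Cry1 (1.33 to 2.06). Cry2 was lower again at 0.355 (0.287 to 0.398), and Dbp was last at 0.170 (0.0230 to 0.355), with a range that overlapped that of Cry2. With the length of the longest transcript in place of the union of exons, Arntl moved up to the place after Clock at 3.69. The ranges of Cry1 (1.47 to 2.27) and Per3 (0.886 to 1.95) then overlapped, and those of Nr1d2 (2.44 to 3.27) and Per1 (1.36 to 2.43), neighbours on that scale, lay apart, while Clock stayed first and Cry2 and Dbp last.

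**Figure D1:**
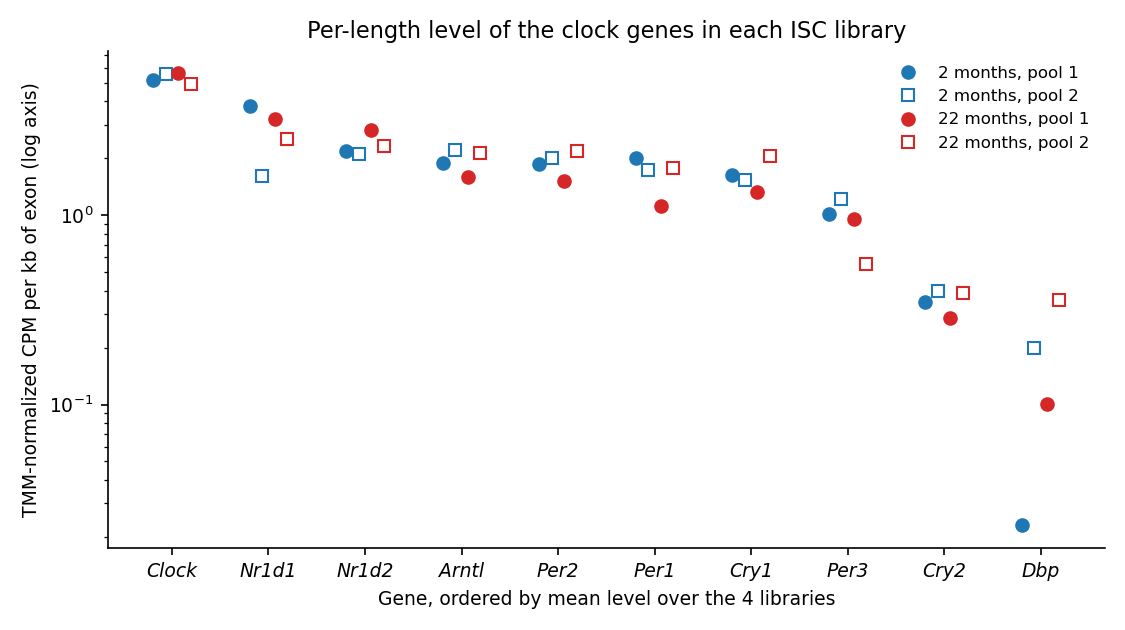
Per-length level (TMM-normalized CPM per kilobase of exon, log axis) of each clock gene in the 4 ISC libraries, with young pools in blue, old pools in red, pool 1 as a filled circle and pool 2 as an open square. Clock lies above all other members at 4.95 to 5.63, 6 genes lie close together beneath it, and Per3, Cry2 and Dbp lie lowest, with Dbp spread most.

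The first question asked of these genes was whether their levels differed between young and old ISCs. None of the 9 members that passed the filter on low counts did so at an FDR of 0.05 in edgeR's quasi-likelihood test over all 13692 genes kept, while 2.26% of all genes were called, 1.63% higher and 0.628% lower in old ISCs. An unadjusted p under 0.05 was reached by 1 of the 9 members, Per3, and by 16.9% of all genes (2316). Limma voom, DESeq2 and edgeR's likelihood ratio test called 0 members too. The log2 fold changes, old over young, ran from -0.56 for Per3 to 0.26 for Nr1d2, with 6 below 0 and 3 above 0, and 50.5% of all genes were below 0. The median was -0.07 for the members and -0.0049 for all genes. The old pools lay both above the young pools in 1 member, Nr1d2 (24.0% of all genes), both below them in 1 member, Per3 (23.6% of all genes), and overlapped them in the other 7. The standard error of the log2 fold change had the same median, 0.24, over the members and over all genes. With 2 pools an age, an exact permutation test of a single gene cannot reach the threshold and is not given. Scaling by total counts moves the median of all genes to -0.49, calls 4 members lower (Arntl, Clock, Per1 and Per3) and turns the split of all calls from 223 higher and 86 lower to 96 higher and 4536 lower, so every direction here is relative to the TMM scaling.

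**Figure D2:**
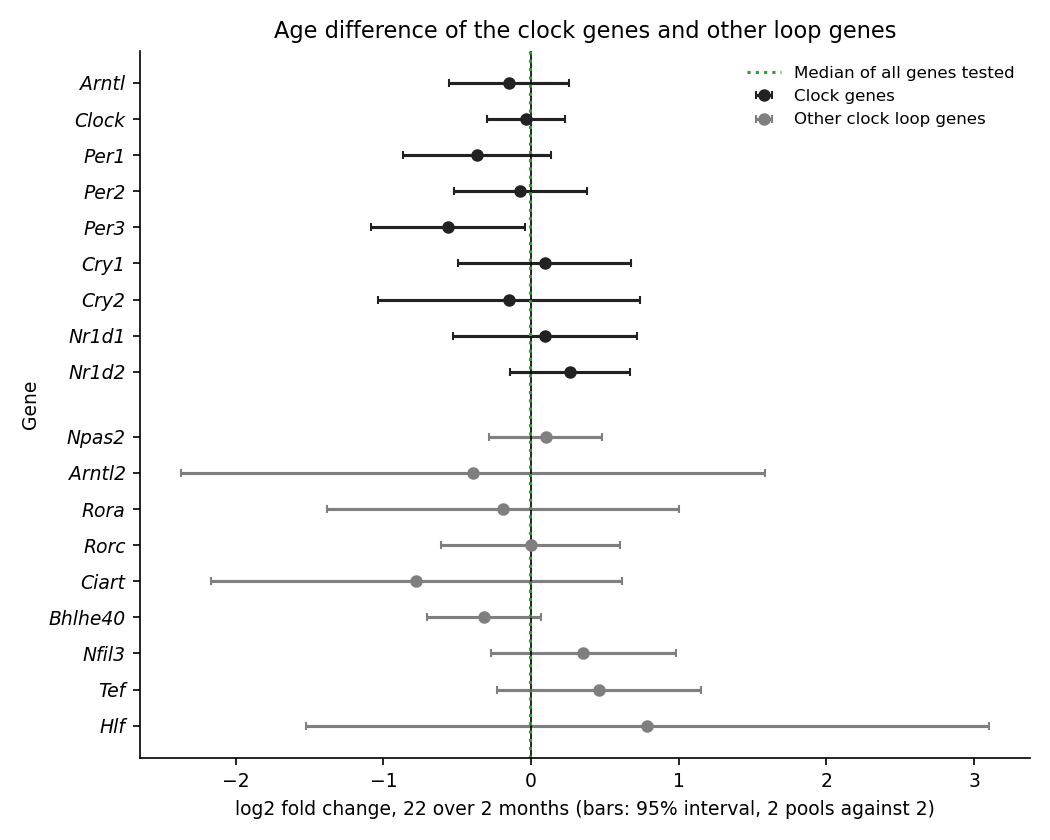
Log2 fold change (22 over 2 months, horizontal axis) of the 9 tested clock genes in black and of 9 other genes of the clock loop in grey, with 95% intervals from edgeR over 2 pools against 2, beside the median of all genes tested as a dotted line. All intervals include 0 but that of Per3, which ends at -0.04 and whose FDR was 0.26.

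Neither activator gene passed the test of age, and their intervals were among the narrower ones. Clock, the partner of BMAL1 with histone acetyltransferase activity (chromosome 5, 76209868 to 76304792, minus strand), was at 71.7 and 77.0 normalized CPM in the young and 77.3 and 68.0 in the old pools. The old pools lay on either side of the young pools, and the fold change was 0.977 (95% interval 0.814 to 1.17, FDR = 0.92), the narrowest interval of the list. Arntl, the gene of BMAL1, without which the loop stops (chromosome 7, 113207465 to 113314126, plus strand), was at 14.2 and 16.7 in the young and 11.9 and 16.0 in the old pools. The groups overlapped, with a fold change of 0.902 (0.681 to 1.20, FDR = 0.75). In these 2 genes, as in every other tested member but Per3 and Cry2, the interval leaves out a doubling or a halving of the level with age.

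The Per genes encode the PER proteins, whose build-up and decay set the pace of the loop. Per1, which also answers quickly to hormones and cAMP (chromosome 11, 69095217 to 69109960, plus strand), was at 11.4 and 9.73 normalized CPM in the young and 6.35 and 10.1 in the old pools, so that 1 old pool was lowest and the other lay between the young pools. Its fold change was 0.776 (0.550 to 1.10, FDR = 0.46), and its log2 fold change of -0.37 ran from -0.068 without the first old pool to -0.73 without the second. Per2, whose loss shortens or abolishes behavioural rhythms (chromosome 1, 91415982 to 91459324, minus strand), was at 11.0 and 11.8 in the young and 8.92 and 12.8 in the old pools, the lowest and the highest of the 4 values both being old, with a fold change of 0.951 (0.697 to 1.30, FDR = 0.91). Per3, the member of the family that the loop can do without (chromosome 4, 151003652 to 151044665, minus strand), was at 9.71 and 11.7 in the young and 9.14 and 5.32 in the old pools. It was the only tested member with both old pools beneath both young pools, and the margin between the nearest pools was small. The fold change was 0.677 (0.471 to 0.973) with FDR = 0.26 in edgeR's test. Without the first old pool Per3 passed the test at a log2 fold change of -1.01 (FDR = 0.020), with the lone old pool taken to vary like the others, and without the second old pool it was at -0.23 (FDR = 0.71). The size of the Per3 difference thus rests on the second old pool, in which the gene had 65 counts against 121 to 177 in the other libraries.

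The Cry genes encode the CRY proteins, the main inhibitors of the CLOCK and BMAL1 dimer. Cry1 (chromosome 10, 85131700 to 85185064, minus strand) was at 5.44 and 5.16 normalized CPM in the young and 4.46 and 6.87 in the old pools, with the old pools on either side of the young ones and a fold change of 1.07 (0.710 to 1.60, FDR = 0.91). Cry2 (chromosome 2, 92403646 to 92434043, minus strand) was at 2.20 and 2.51 in the young and 1.81 and 2.45 in the old pools. It had only 24 to 38 counts a library, and its fold change of 0.902 had the widest interval of the list (0.488 to 1.67, FDR = 0.90), so changes within that interval are not excluded. The exons of Cry2 overlap by 295 bases those of D930015M05Rik on the opposite strand, which had no more than 1 count in any library.

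The nuclear receptor genes Nr1d1 and Nr1d2, which repress Arntl, did not pass the test either. Nr1d1 (chromosome 11, 98767932 to 98775333, minus strand) was at 11.6 and 4.96 normalized CPM in the young and 9.90 and 7.77 in the old pools, so the young pools held both the highest and the lowest value. The fold change was 1.07 (0.693 to 1.65, FDR = 0.91), and it depended on the young pool used. It was at a log2 fold change of -0.40 (FDR = 0.58) without the second young pool and of 0.83 without the first. Nr1d2 (chromosome 14, 18204054 to 18239127, minus strand) was at 11.8 and 11.4 in the young and 15.3 and 12.6 in the old pools, both old pools above both young pools, with a fold change of 1.20 (0.907 to 1.59, FDR = 0.52). The exons of Nr1d1 share 263 bases (8.55% of its exonic length) with Thra, a thyroid hormone receptor gene on the opposite strand. The strand setting of the counting is not given in the sources used here, and without strand the reads of the shared bases cannot be told apart. Thra was more abundant than Nr1d1, at 37.4 and 35.5 normalized CPM in the young and 26.9 and 28.0 in the old pools (log2 fold change -0.41, FDR = 0.14).

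Dbp, the output factor whose mRNA swings widely over the day in many tissues (chromosome 7, 45705088 to 45710203, plus strand), was barely detected. It had 1 and 9 counts in the young and 4 and 13 in the old libraries, too few for the filter on low counts, and its level was 0.0689 and 0.595 normalized CPM in the young and 0.302 and 1.06 in the old pools. In each age 1 pool was well above the other, and the groups overlapped. In the fit without the filter its log2 fold change was 0.99 with FDR = 0.80, a value that depends on the prior count added to such low counts. Of its exonic length, 539 bases (18.0%) are shared with Sphk2, a sphingosine kinase gene on the opposite strand that was at 16.3 to 21.4 normalized CPM, so even these few counts cannot be assigned to Dbp with confidence.

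The 2 pools of old ISCs differed from each other in several clock genes. Each pair of pools was compared by an exact binomial test on the counts of the 2 libraries, adjusted over all genes tested. This test was added after seeing the data, takes in counting error only and compares those libraries, not the conditions. Between the 2 old pools, 5 of the 9 tested members differed at an FDR of 0.05, and 19.8% of all genes did. The second old pool was higher for Arntl (log2 ratio 0.43, FDR = 0.037), Per1 (0.66, FDR = 0.0094) and Per2 (0.52, FDR = 0.024). It was lower for Clock (-0.19, FDR = 0.035) and Per3 (-0.78, FDR = 0.0044). Cry1 had a log2 ratio of 0.62 (FDR = 0.057) and Cry2 one of 0.44 (FDR = 0.49). Nr1d1 (-0.35, FDR = 0.20) and Nr1d2 (-0.28, FDR = 0.22) were on the other side of 0. Arntl, Per1, Per2 and the Cry genes thus stood on one side between the old pools, and Clock, Per3 and the Nr1d genes on the other, although 4 of these 9 ratios did not pass the test.

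Between the 2 young pools only 1 of the 9 members differed, Nr1d1, which was lower in the second pool by a log2 ratio of -1.23 (169 against 75 counts, FDR = 2.9e-08 in the same exact test). Of all genes, 16.9% differed. The other 8 ratios, among them 0.24 for Arntl, -0.22 for Per1 and 0.27 for Per3, did not pass. Nr1d2, the paralog of Nr1d1, had a log2 ratio of -0.06. The median size of the log2 ratio was 0.19 for the members and 0.23 for all genes between the young pools, and 0.44 and 0.27 between the old pools. Whether the spread of the members differs between the ages was not tested. The old pools also differed in other cells' markers, with the first pool at 278 normalized CPM for the enterocyte list and 1592 for the Paneth cell list against 168 and 586 in the second. The 5 goblet cell markers summed to 1998 and 1547 in the old pools and to 1459 and 1896 in the young ones. The enteroendocrine list summed to 25.6 and 126 in the young pools, between which Nr1d1 differed. The part of these cells, and of the hour of collection of each pool, in the differences between pools was not tested.

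**Figure D3:**
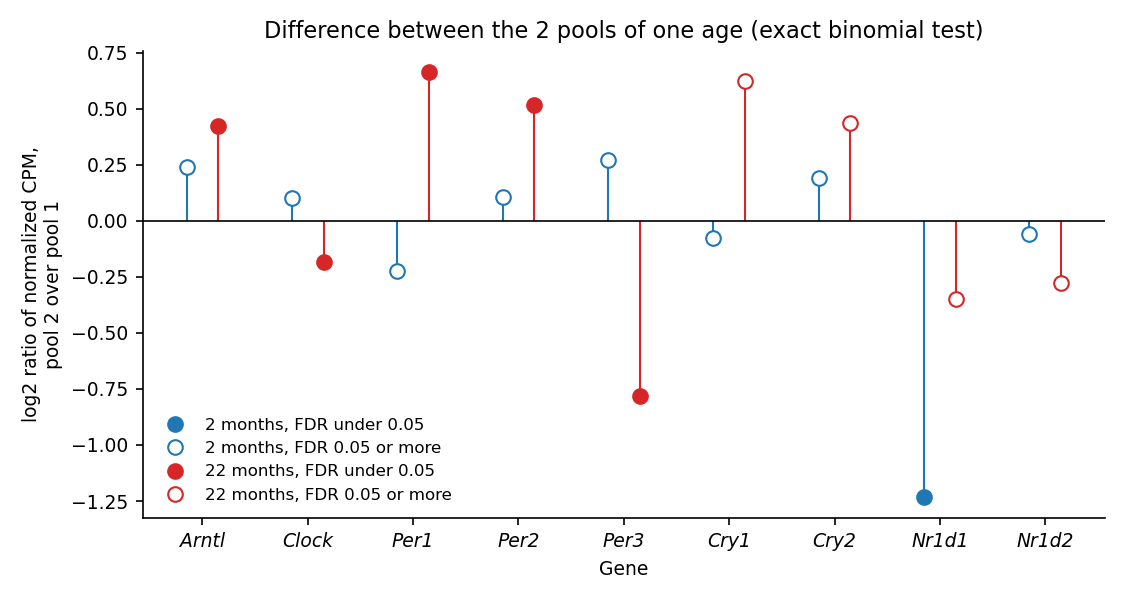
Log2 ratio of normalized CPM between the 2 pools of one age (pool 2 over pool 1) for the 9 tested clock genes, with young pools in blue, old pools in red and filled points for an FDR under 0.05 in the exact binomial test. In old ISCs 5 genes are filled, from -0.78 for Per3 to 0.66 for Per1, and in young ISCs 1 gene is filled, Nr1d1 at -1.23.

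The balance of the activators to the other members was read from ratios of counts within a library, which do not depend on how the libraries are scaled to each other. Arntl over Nr1d1, which run in opposite phase in a cycling tissue, had a log2 ratio of 0.29 and 1.75 in the young and 0.27 and 1.04 in the old libraries. The first young and the first old library had 1.22 and 1.21 times as many counts of Arntl as of Nr1d1, and the second ones 3.37 and 2.06 times. The span of this ratio within young ISCs was thus wider than the difference of the age means, -0.36. Arntl over Per2 was steadier, at 0.37 and 0.51 in the young and 0.42 and 0.33 in the old libraries. Arntl over Cry2 ran from 2.69 to 2.74 in all 4, although Cry2 had few counts. Arntl over Per3 was at 0.55, 0.52 and 0.38 in 3 libraries and at 1.59 in the second old library, the one with the low Per3 count.

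Clock over Per3 was 2.88 and 2.72 in the young and 3.08 and 3.68 in the old libraries, and the old values were both above the young ones. Clock over Nr1d2 was 2.60 and 2.76 in the young and 2.34 and 2.43 in the old libraries, the old values both beneath the young ones. The other ratios of Clock overlapped between the ages, and so did all 7 of Arntl. Among paralogs, Per1 over Per2 was 0.05 and -0.28 in the young and -0.49 and -0.34 in the old libraries, without overlap. Per1 over Per3 (0.23 and -0.27 against -0.53 and 0.92), Per2 over Per3 (0.17 and 0.0081 against -0.04 and 1.26), Cry1 over Cry2 (1.30 and 1.04 against 1.30 and 1.49) and Nr1d1 over Nr1d2 (-0.03 and -1.20 against -0.62 and -0.70) overlapped. These ratios are given as descriptions, with no test. Levels lay without overlap between the ages in 24.0% (old above) and 23.6% (old below) of all genes, and no such share was computed for ratios. Per3 and Nr1d2 were the tested members whose own levels did not overlap. Clock over Per3 and Clock over Nr1d2 are therefore not results apart from those levels.

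**Figure D4:**
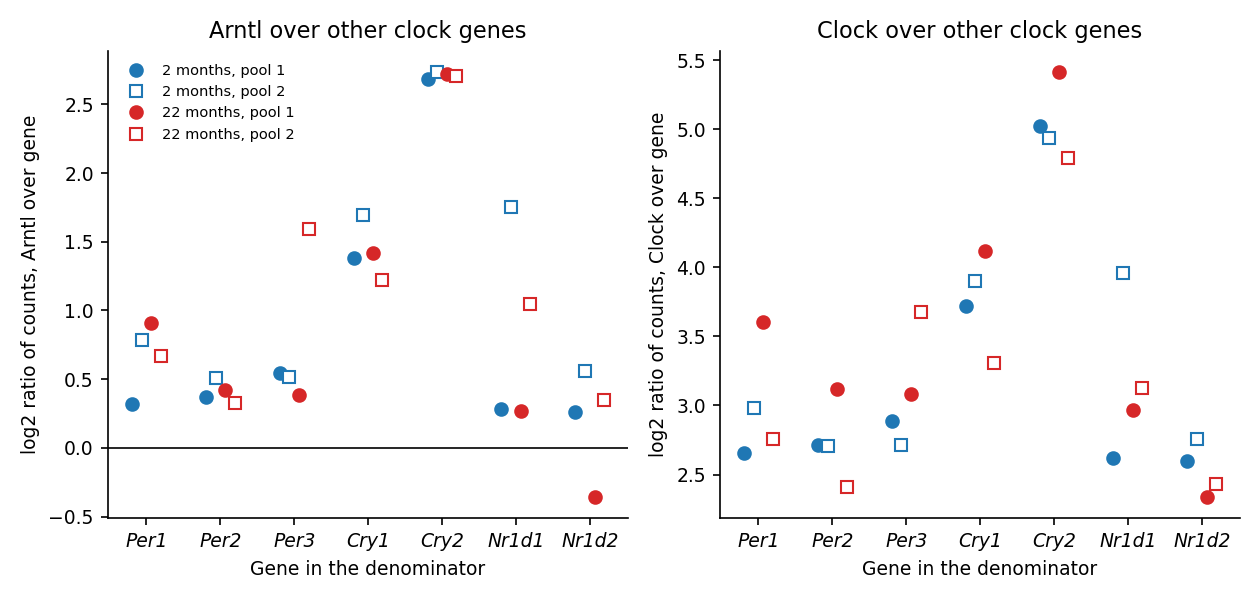
Log2 ratio of counts within each library, Arntl (left) and Clock (right) over each of 7 other clock genes, with young pools in blue, old pools in red, pool 1 as a filled circle and pool 2 as an open square. Arntl over Nr1d1 spans 0.29 to 1.75 in the young pools alone, and Arntl over Cry2 lies at 2.69 to 2.74 in all 4.

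No other gene of the loop passed the test. Of 11 such genes, 9 passed the filter on low counts, none was called in either direction by edgeR's test (2.26% of all genes were) or by the 3 other tools. An unadjusted p under 0.05 was reached by 0, and the median log2 fold change was -0.00097. Npas2, the paralog of Clock, was present at 194 to 235 counts a library, whereas Arntl2, the paralog of Arntl, had 1 to 16. Bhlhe40 (DEC1), an E-box repressor that competes with the activators, had the lowest p of the list, at 19.9 and 27.9 normalized CPM in the young and 21.5 and 16.8 in the old pools (log2 fold change -0.32, FDR = 0.41). Tef, a PAR bZIP factor like DBP, was at 3.38 and 3.57 in the young and 3.48 and 6.13 in the old pools (0.46, FDR = 0.51). Nfil3 (E4BP4), which binds D-boxes as a repressor, was at 3.51 and 3.84 in the young and 5.06 and 4.33 in the old pools (0.35, FDR = 0.59). It was the 1 tested gene of the list with both old pools above both young pools (24.0% of all genes). In 1 other both old pools were below (23.6% of all genes). Rorb and Bhlhe41 did not pass the filter, with up to 4 and 2 counts.

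The kinases, ubiquitin ligases and cofactors that act on clock proteins were all measured, 19 of 19, and none was called by edgeR's test (2.26% of all genes were) or the 3 other tools, with 3 at an unadjusted p under 0.05 (16.9% of all genes). Their median log2 fold change was 0.04, with 12 above 0 and 7 below (50.5% of all genes were below 0). The lowest p belonged to Prkaa1, a catalytic subunit of AMP-activated kinase that marks CRY proteins for decay (23.4 and 23.6 normalized CPM in the young, 31.1 and 32.9 in the old pools, log2 fold change 0.44, FDR = 0.12). Cipc, an inhibitor of CLOCK, was at 16.3 and 15.7 in the young and 19.6 and 21.4 in the old pools (0.35, FDR = 0.29). Over the list, the old pools were both above the young pools in 6 genes, these 2 among them (24.0% of all genes), and both below in 2 (23.6%).

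Of 10 genes known as clock outputs, 1 was called, against 1.63% of all genes called higher. Limma voom, DESeq2 and the likelihood ratio test called 2, 0 and 2. The gene called by edgeR's test was Nampt, the rate-limiting enzyme of NAD salvage, at 13.2 and 14.8 normalized CPM in the young and 27.4 and 20.4 in the old pools. Its level rose 1.71-fold (log2 fold change 0.77, 95% interval 0.39 to 1.15, FDR = 0.028 in edgeR's test). The call was lost without the first young pool (0.69, FDR = 0.15), without the first old pool (0.54, FDR = 0.12), in DESeq2 (0.77, FDR = 0.062), with offsets for GC content and length (0.66, FDR = 0.067) and when scaled by total counts (0.28, FDR = 0.25). The next genes by p were Slc5a1, the sodium-glucose transporter SGLT1 (95.3 and 94.9 against 132 and 122, 0.41, FDR = 0.075), and Abcb1a, a drug efflux pump (21.7 and 23.4 against 34.6 and 29.9, 0.52, FDR = 0.079). The median log2 fold change of the list was 0.41, and 9 of its 10 members were above 0 (50.5% of all genes were below 0). Both old pools were above both young pools in 5 (24.0% of all genes) and below in 0 (23.6%). An unadjusted p under 0.05 was seen for 3 (16.9% of all genes). Enterocytes express Slc5a1 strongly. Of the 6 enterocyte markers, whose sums are given above, 2 were called higher (1.63% of all genes were), Fabp1 (log2 fold change 2.35, FDR = 2.4e-06) and Sis (1.38), and 4 did not pass. The part of these cells in the Nampt result was not tested.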

How the data were processed

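RNA of 4 pools of sorted ISCs was sequenced, 2 for each age. The authors deposited raw counts per gene, neither normalized nor filtered. Per the labels and the methods, reads were trimmed with Trimmomatic 0.30, aligned with STAR 2.4.2a to GRCm38 and counted over exons of GENCODE vM15 with featureCounts. The strand setting is not given in the sources used here.

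The filter kept the 13692 of 52459 genes that exceeded 5 reads and 1 CPM in any library. For the filter, CPM was taken on the library's total counts, before TMM scaling. Ages were compared by the quasi-likelihood test of edgeR 4.0.16 (R 4.3.3) on TMM factors, without covariates, and p-values were adjusted by Benjamini-Hochberg with a threshold of FDR 0.05. Intervals are 95% intervals. Like the p-values, they rest on the spread between pools of different animals. That spread was moderated over all genes kept, so an interval is not the spread of a single gene's own pools. Alternatives used limma 3.58.1 (voom with quality weights), DESeq2 1.42.0, other scalings and filters, and each pool left out. The scripts were tested on simulated data. Positions and exonic lengths came from GENCODE vM21 on GRCm38, in which 47976 symbols matched 1 gene each, and promoter sequences from RefSeq (GRCm38.p6). Counting intervals cover counting error only.

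The members and gene lists were chosen with earlier results of these data known. All 10 members are named. Of the other lists, the genes with FDR under 0.05 and the 3 of lowest p could be named, at most 5 a list (some are not reported here), and genes whose exons overlap those of a member. Paralogs, untested genes and marker genes given only by count, and the comparison of pools, were chosen after their values were seen.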

Additional observations from a re-analysis of the deposited data

How the results depend on the processing

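The count of 0 members called held in limma voom, DESeq2, edgeR's likelihood ratio test, RLE and upper quartile scaling, TMM without mitochondrial genes, all 3 other filters, the GC and length offsets and the replicate block. It was 4 when scaled by total counts and 0 to 1 over the fits that leave out a pool (1, Per3, without the first old pool). Scaled by total counts, which moved the median of all genes to -0.49, 0 members had both old pools above and 7 below. With GC and length offsets 0 were below. The shares of all genes under these scalings were not computed, so these counts are not a result about the members. The count over all genes, 309, became 197 in DESeq2, 611 in the likelihood ratio test, 4632 by total counts, 554 without a filter, 193 with the offsets and 147 to 687 when a pool was left out. The replicate numbers are shared by both ages but mark different animals, with a correlation of deviations of -0.00015, and with the replicate block 624 genes and 0 members were called.

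Directions of members near 0 turned with the setting. By total counts Cry1 was at -0.40, Nr1d1 at -0.42 and Nr1d2 at -0.23 on the log2 scale, and with the offsets Per2 was at 0.043 and Cry2 at 0.0047. Leaving out a pool moved Arntl from -0.37 to 0.051, Clock from -0.13 to 0.056 (0.012 without the second young pool), Per2 from -0.35 to 0.17, Cry1 from -0.25 to 0.37, Cry2 from -0.38 to 0.055 and Nr1d1 from -0.40 to 0.83 (-0.09 without the first old pool). Per1 (-0.73 to -0.068, and -0.14 with the offsets), Per3 (-1.01 to -0.23) and Nr1d2 (0.12 to 0.39) kept their sign when a pool was left out. The counts of members differing between pools, 5 and 1, were unchanged under 4 other scalings, added after seeing the data. The cause of these changes was not tested beyond the scaling or pools named. Counts of 24 to 253 a library for the tested members other than Clock limit the precision.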

Other observations

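Besides the loop itself, lists of genes that respond to signals which also reach it were read from the same fit. Among them are the early response genes, which share cAMP and growth factor inputs with Per1. Of the 8 early response genes, 2 were called lower in old ISCs (0.628% of all genes were called lower). Fosb, a subunit of AP-1, was at 5.72 and 6.02 normalized CPM in the young and 1.89 and 2.13 in the old pools and fell by 1.55 on the log2 scale (FDR = 0.015 in edgeR's test). Egr1, a zinc finger factor induced within minutes by growth factors, was at 46.1 and 34.3 in the young and 19.2 and 26.7 in the old pools and fell by 0.81 (FDR = 0.020), a call lost without the first young pool (-0.58, FDR = 0.20) and with offsets for GC content and length (-0.65, FDR = 0.067). The call of Fosb was lost without 1 or the other young pool, at FDR = 0.055 and 0.059, with log2 fold changes of -1.58 and -1.51. Per1, at a log2 fold change of -0.37 (FDR = 0.46), did not pass the test beside them.

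Glucocorticoids are the systemic signal that sets clocks of many tissues, through Per1 among others. Of 6 genes that respond to them, 5 passed the filter and none was called in either direction by edgeR's test (2.26% of all genes were), while 4 had an unadjusted p under 0.05 (16.9% of all genes) and limma voom, DESeq2 and the likelihood ratio test called 0, 0 and 1, with a median log2 fold change of 0.41. Fkbp5, a co-chaperone of the glucocorticoid receptor, was at 8.20 and 10.7 normalized CPM in the young and 14.4 and 15.9 in the old pools (0.68, FDR = 0.084), and Klf9, a Krüppel-like factor, at 29.4 and 28.5 in the young and 36.4 and 40.5 in the old pools (0.41, FDR = 0.14). Tsc22d3 (GILZ), a leucine zipper protein, was at 8.61 and 7.54 in the young and 9.14 and 13.5 in the old pools (0.48, FDR = 0.29). In these 3 genes the old pools were both above the young ones (24.0% of all genes), and both were below them in 1 gene (23.6% of all genes). This was Errfi1, a feedback inhibitor of the EGF receptor, at 18.2 and 15.5 in the young and 13.9 and 11.5 in the old pools (-0.41, FDR = 0.28).

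Of the marker lists not described above, 1 of the 3 tested tuft cell markers, Dclk1, was called higher in old ISCs (1.63% of all genes were), at 0.276 and 0.265 normalized CPM in the young and 3.17 and 1.55 in the old pools. The call, at a log2 fold change of 3.09 (FDR = 0.026), was lost in limma voom (FDR = 0.087), without the first old pool (2.49) and without the first young pool (3.12). Of the same list, Trpm5 was at 0.94 (FDR = 0.52) and Pou2f3 at -0.21 (FDR = 0.85). Of the 5 Paneth cell markers, 2 were called higher, Defa17 (1.11, FDR = 0.016) and Defa24 (0.87, FDR = 0.046). Without the first old pool they were at 0.40 (FDR = 0.12) and 0.20 (FDR = 0.41), and in DESeq2 their FDR was 0.50 and 0.66. The call of Defa24 was also lost with upper quartile or total count scaling, with filterByExpr, with at least 10 counts in every library and with the offsets. No goblet or enteroendocrine marker was called by edgeR's test or the 3 other tools, with 0 and 1 at an unadjusted p under 0.05.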
